A study of Caenorhabditis elegans with 6 samples.

Results

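The collagen gene col-78, the acyltransferase gene oac-54 and the HIF-1 regulator rhy-1 lie one after the other on the plus strand of chromosome II of Caenorhabditis elegans. HIF-1 peaks were examined in the 13000 bp at II:9152379-9165378 (WBcel235) that hold these 3 genes. The interval was chosen from the signals and positions of the peaks themselves, so the signals, ranks and positions below are descriptions without a test. In egl-9 mutants it held 8 peak calls at 6 separate sites, of 604 nuclear calls in 574 separate regions, and in the control strain it held 1 of 52 nuclear calls.

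The peaks came from ChIP-seq with anti-GFP antibodies on whole hermaphrodites at the L4 larval stage, grown on NGM plates with OP50 bacteria at 20 °C without hypoxia. Both strains carried the deletion allele hif-1(ia4), unc-119(ed3) and the integrated transgene odIs131[hif-1::gfp, unc-119(+)], made from a genomic fosmid and inserted by bombardment, so the only functional HIF-1 was the GFP fusion of 1 transgenic line. The egl-9 mutants (strain OR3350) also carried egl-9(sa307), and the control strain (OR3349) did not. Each strain had 2 ChIP libraries and 1 pooled input, reduced by the authors to 1 peak list, so no spread between replicates can be given and all values below are single values. Because whole animals were used, the tissue in which a site was bound is not known.

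HIF-1 is the transcription factor of the hypoxia response. When oxygen is present, the prolyl hydroxylase EGL-9 marks HIF-1 for destruction through VHL-1, and loss of EGL-9 stabilises HIF-1 in air. RHY-1 is a membrane protein of the acyltransferase family that keeps HIF-1 activity low by acting through CYSL-1 and EGL-9, and its own gene is induced by HIF-1. HIF-1 binds DNA as a dimer with AHA-1 at hypoxia response elements (HREs), whose core is RCGTG, where R is A or G.

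The 6 sites were numbered along the chromosome from col-78 to rhy-1. Their DNA is shown because it carries the HRE cores on which the comparison of the sites turns. Each sequence is the plus strand of the WBcel235 reference genome, with 50 bp on each side of the leading summit of the site, at II:9154471-9154571, II:9156427-9156527, II:9158183-9158283, II:9160391-9160491, II:9161553-9161653 and II:9163497-9163597 in the order given. Capitals mark the cores, read as ACGTG on the strand shown or as CACGT where the core lies on the other strand.
site 1: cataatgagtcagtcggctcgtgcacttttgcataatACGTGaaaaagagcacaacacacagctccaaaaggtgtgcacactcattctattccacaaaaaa
site 2: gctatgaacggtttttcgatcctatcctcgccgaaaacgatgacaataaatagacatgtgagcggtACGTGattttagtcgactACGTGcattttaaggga
site 3: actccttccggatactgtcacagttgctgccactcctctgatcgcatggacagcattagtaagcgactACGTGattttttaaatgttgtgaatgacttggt
site 4: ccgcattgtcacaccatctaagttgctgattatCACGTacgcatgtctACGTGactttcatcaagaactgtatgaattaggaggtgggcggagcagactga
site 5: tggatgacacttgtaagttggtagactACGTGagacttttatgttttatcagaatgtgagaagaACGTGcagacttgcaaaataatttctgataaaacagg
site 6: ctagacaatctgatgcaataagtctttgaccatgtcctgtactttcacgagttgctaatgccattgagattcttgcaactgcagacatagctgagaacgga
Site 2 and site 5 show both of their cores in these windows, on the same strand, and site 4 shows both of its cores on opposite strands. Site 1 and site 3 show a single core, and site 6 shows none.

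In egl-9 mutants the strongest binding of the interval, and of the whole nuclear list, lay upstream of rhy-1 at site 4, and the next strongest of the interval lay upstream of oac-54 at site 2. Signals are quoted as the deposited lists give them, without a unit. Signals were 175 at site 1, 512 at site 2, 93.7 at site 3, 838 at site 4, 115 at site 5 and 68.6 at site 6. The median of the nuclear list was 76.7 and its lowest value 54.4, so that 5 of the 6 sites were above the median and site 6 was below it. The ratio of the strongest to the weakest site was 12.2. Sites 2 and 4 each had a second call over the identical coordinates, with a signal of 74.7 and a summit 205 bp from the leading one at site 2, and with a signal of 64.5 and a summit 216 bp away at site 4. No other calls of the nuclear list had identical coordinates. The 8 signals summed to 1943, of which the 2 highest calls gave 69.5%.

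**Figure D1:**
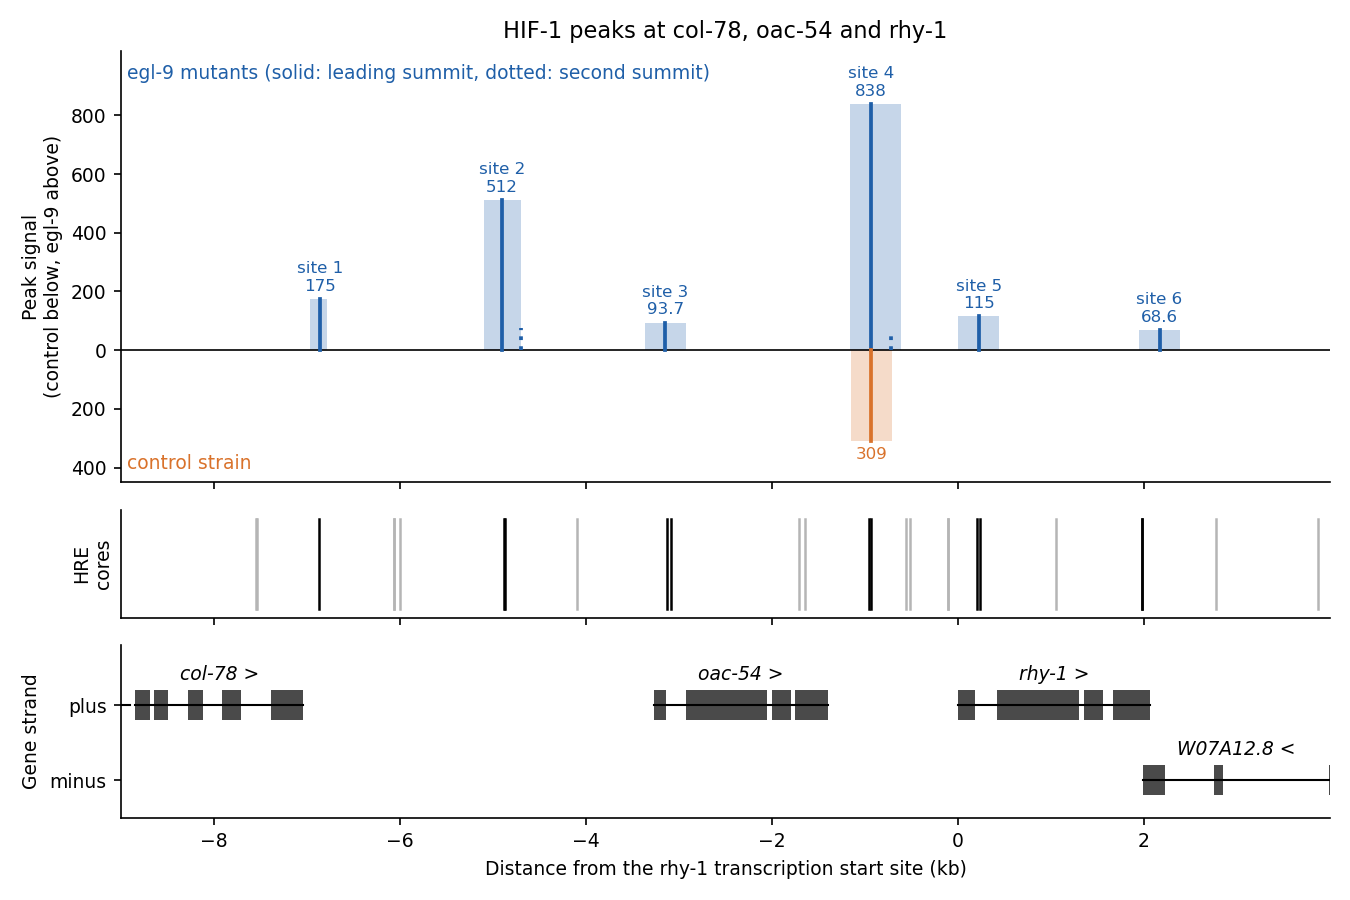
Peak signal (vertical axis, no unit; egl-9 mutants upwards, control strain downwards), positions of HRE cores (black inside a peak of egl-9 mutants, grey outside) and genes (boxes are exons, minus-strand genes below) against the distance from the rhy-1 transcription start site in kb. Shaded boxes give the width of each peak and vertical lines its summits. Site 4 (838) and site 2 (512) stand in the intergenic stretches before rhy-1 and oac-54, and the single control peak (309) lies under site 4.

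Site 4, at II:9160215-9160767, lay in the 1394 bp between oac-54 and rhy-1, with its centre 888 bp upstream of the rhy-1 transcription start site (TSS). Its signal of 838 was 10.9 times the list median. The next peak of the list, at egl-9, the gene of the hydroxylase, had a signal of 688. At 553 bp site 4 was also the widest peak of the nuclear list, in which 557 calls were 444 bp wide.

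Site 5, at II:9161381-9161824, covered nearly all of the first exon and the whole first intron of rhy-1. Its centre lay in that intron, 224 bp downstream of the TSS. It ranked 128 of 604, between peaks at nhr-19, a nuclear hormone receptor gene (116), and at the collagen gene col-94 (115).

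Site 6, at II:9163325-9163768, lay over the end of rhy-1, which overlaps the convergent gene W07A12.8 by 82 bp. Its summit fell in a coding exon of W07A12.8, 2168 bp downstream of the rhy-1 TSS and 2265 bp downstream of the W07A12.8 TSS. It ranked 363, between peaks at F26A3.4 (68.7) and C28G1.2 (68.5).

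Site 2, at II:9156282-9156683, lay in the 3774 bp between col-78 and oac-54, centred 1628 bp upstream of the oac-54 TSS and 3952 bp downstream of that of col-78. It ranked 7 of 604, below a peak at the sulfide oxidation gene sqrd-1 (590) and well above the next, at Y62E10A.13 (366). Site 3, at II:9158011-9158454, was centred in the first coding exon of oac-54, 122 bp downstream of its TSS, and ranked 194, between peaks at F54F2.6 (94.0) and mtrr-1 (93.4).

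The site nearest to col-78 was site 1, at II:9154411-9154591, centred 1970 bp downstream of the col-78 TSS. It began 74 bp beyond the annotated end of the gene and was 181 bp wide, narrower than most calls. It ranked 61, between peaks at nifk-1 (176) and F22H10.2 (175). No peak lay upstream of col-78 in the interval, and the next peak before site 1 on the chromosome was 222597 bp away. The next peak after site 6 was 119016 bp away, so neither W07A12.4 and Y9C2UA.1 on the left nor T23G7.3 on the right had a peak of its own outside the interval.

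**Figure D2:**
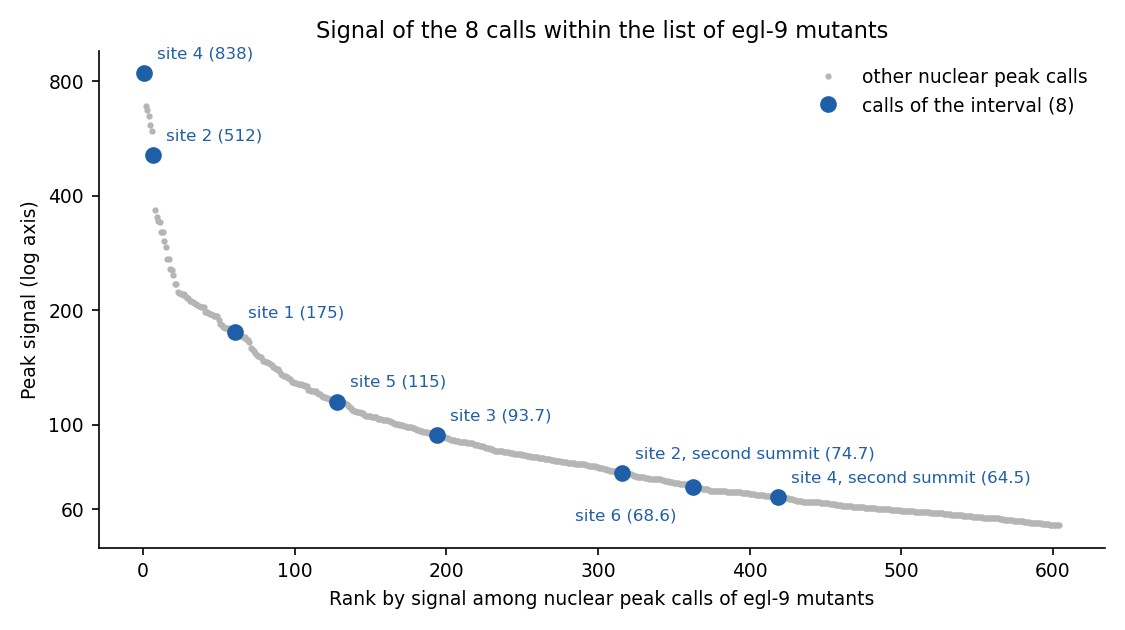
Signal (vertical log axis, no unit) of each nuclear peak call of egl-9 mutants against its rank, with the 8 calls of the interval as large points and the others in grey. Sites 4 and 2 stand at ranks 1 and 7, sites 1, 5 and 3 at 61, 128 and 194, and site 6 and the second summits further down the list.

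Of the 8 calls, 4 were centred within 1000 bp of the TSS of a protein-coding gene, at sites 3, 4 and 5, against 59.8% of all nuclear calls of egl-9 mutants. Counted by gene, rhy-1 and oac-54 had a peak centre within 1000 bp of their TSS and col-78 did not, where 2.27% of 19973 protein-coding genes did. The interval was chosen from these same peaks, so the count over its own genes is no result. Trans-splicing is common in C. elegans and can place the annotated TSS downstream of the true start.

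In the control strain, where EGL-9 was present, HIF-1 was found in the interval only at site 4. The control peak at II:9160228-9160667 had a signal of 309 and ranked 5 of 52. It lay wholly inside the peak of egl-9 mutants, with its summit 7 bp from the leading one. Both calls of site 4, hence 2 of 8, overlapped a control peak, against 10.1% of all nuclear calls of egl-9 mutants. The other 5 sites had no counterpart. Site 2 (512) and site 1 (175) had no control peak although their signals in egl-9 mutants were higher than 141, the lowest nuclear signal among control peaks. A signal of at least 141 was reached by 3 of the 8 calls and by 14.2% of all calls. The signals of the 2 lists were not scaled to each other and the depth of each library is not known, since the study's methods give only a range over all libraries.

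Among the 48 control peaks with a counterpart in egl-9 mutants, the ratio of the egl-9 signal to the control signal ranged from 0.336 to 3.13, with a median of 1.03. At site 4 the ratio was 2.71, the second highest of the 48, after sqrd-1 (590 against 188, a ratio of 3.13). At the highest peak of egl-9 the signals were 688 and 671, a ratio of 1.03. The peak of egl-9 thus led the control list and the rhy-1 peak led the list of egl-9 mutants.

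**Figure D3:**
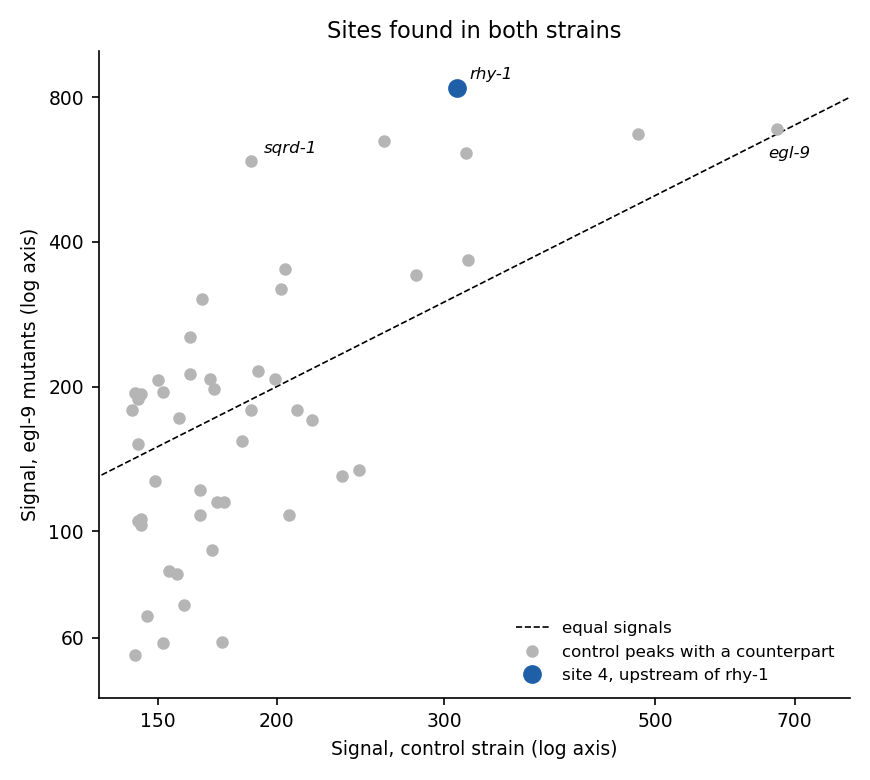
Signal in egl-9 mutants against signal in the control strain (both log axes, no unit) for the 48 control peaks with an overlapping peak in egl-9 mutants, labelled by nearest gene for 3 of them. The dashed line marks equal signals. Site 4 upstream of rhy-1 (309 and 838) lies above it, and the highest peak of egl-9 (671 and 688) lies close to it.

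HRE cores were counted on both strands within 100 bp of each peak centre, which is called the window of a peak below. Site 1 held 1 core, sites 2, 3, 4 and 5 held 2 each, and site 6 held none. Thus 7 of the 8 calls had a core, against 67.7% of all nuclear calls, and 6 of the 8 had at least 2 cores, against 35.8%. The second calls of sites 2 and 4 have the same centre as the leading calls, so these 2 windows are counted again. Counted by site, 5 of the 6 had a core, and only sites 2, 3, 4 and 5 had at least 2. The 2 cores began 18 bp apart at site 2, 43 bp at site 3, 15 bp at site 4 and 37 bp at site 5. At site 4 the cores lay on opposite strands, and at the other 3 sites both lay on the plus strand. Among the sites with 2 cores the signal ranged from 93.7 to 838. Site 1, with 1 core, had a signal of 175, and site 6, with none, had the lowest, 68.6.

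The summits lay close to the cores. The leading summit of site 4 fell within a core, and the distances to the nearest core were 9 bp at site 1, 16 bp at site 2, 18 bp at site 3 and 14 bp at site 5. A core within 25 bp of the summit was found for 5 of the 8 calls, all of them leading calls, against 29.6% of all nuclear calls. The second summits were 167 bp from a core at site 2 and 159 bp at site 4. At site 6 the nearest core was 188 bp away.

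**Figure D4:**
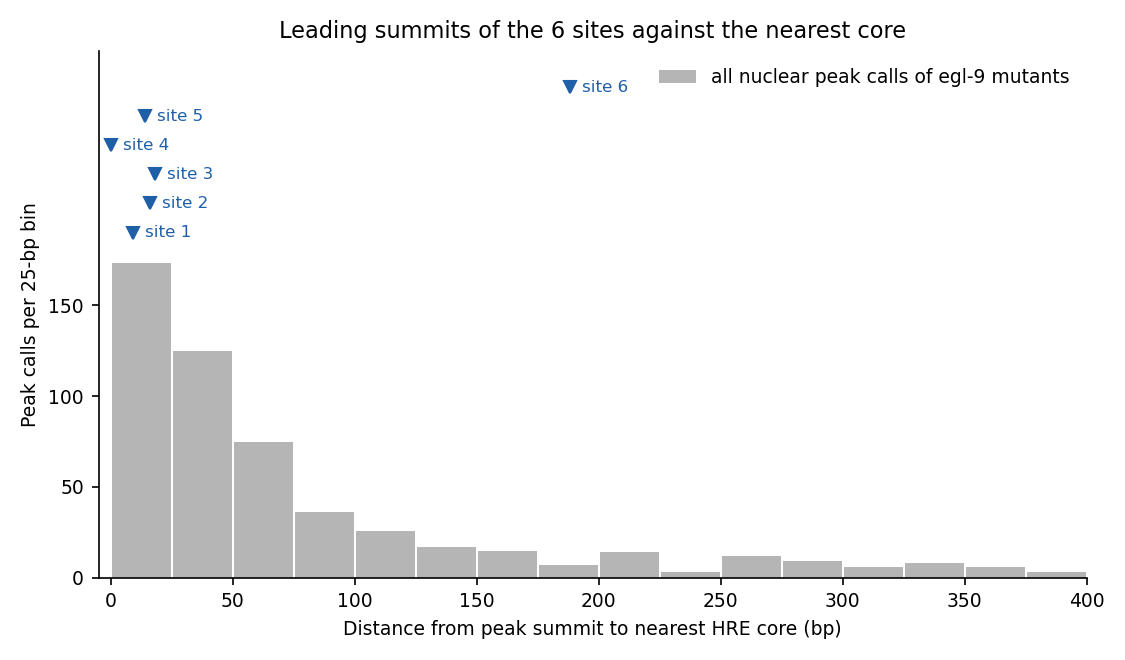
Number of nuclear peak calls of egl-9 mutants (vertical axis) by distance from the summit to the nearest HRE core in bins of 25 bp, with triangles at the distances of the leading summits of the 6 sites (their height has no meaning). Calls beyond 400 bp are not drawn. Sites 1 to 5 lie between 0 and 18 bp, and site 6 lies at 188 bp.

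The whole interval held 26 cores, all of them with A in the first place. Over the nuclear genome 65.5% of cores had A there, as did 61.2% of the 761 cores in the windows of all calls. The 6 sites covered 19.0% of the interval and held 11 of the cores, or 4.46 per kb. The rest of the interval held 15, or 1.42 per kb, where the nuclear genome held 1.70 per kb. Most cores of the interval were therefore outside any peak, including 2 in an intron of col-78, 2 in the last exon of oac-54 and 1 in the second exon of rhy-1.

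At each of sites 1 to 5 at least 1 core was preceded by T. A T preceded 7 of the 9 cores in the peak windows and 5 of the 15 cores outside the peaks. The cores outside the peaks include those of palindromes CACGTG, where the base before the core is C by construction. The cores of site 6 lay in its peak but outside its window, so they are in neither count. The sequence TACGTG, searched on both strands, was present at sites 1 to 5 and in 19.4% of the windows of all nuclear calls. GACTACGTG, which contains it, was present at sites 2, 3 and 5. It was found in the windows of only 6 calls of the whole list (0.993%), although the nuclear genome held 249 copies. Of these calls, 4 were in the interval, at 3 sites, since both calls of site 2 have the same window. Site 4 shared the last 7 letters, CTACGTG, which were in 7.62% of all windows. These counts were made after the sequences of the sites had been seen.

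The 3 palindromes CACGTG of the interval, each counted as 2 cores, were absent from the windows of the 6 sites. Of the windows of all nuclear calls, 14.4% held one, so with only 6 sites this absence is read as no result. The palindrome nearest to a TSS began 108 bp upstream of rhy-1, between sites 4 and 5 and under no listed peak. Another lay inside site 6, in the 3' untranslated region of rhy-1, 188 bp from the summit. Both are shown on the plus strand of WBcel235, with the palindrome in capitals, at II:9161259-9161288 and II:9163342-9163371, because they are cores near rhy-1 on which no summit was centred.
palindrome before rhy-1: ccatgccgtctcCACGTGatatcgcttttc
palindrome in site 6: tcttttgccaccCACGTGtaattgtattta
The base before the core is C in both, by construction of the palindrome, and not the T found at sites 1 to 5.

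RHY-1 and OAC-54 are close paralogs. Translated from the reference genome, RHY-1 has 502 residues and OAC-54 has 477, and 348 of 477 aligned residues were identical (73.0%). This was the highest identity to RHY-1 among the 56 oac genes compared, and the next, OAC-3, reached 31.7%. The coding parts of exons 2, 3 and 4 have equal lengths in the 2 genes (873, 206 and 247 bp), with 80.7%, 93.9% and 76.9% identity over the aligned bases. The first introns, 215 bp in oac-54 and 239 bp in rhy-1, could be aligned over only 45 bp.

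Both first introns held 2 HRE cores on the plus strand, and both were under a peak, site 3 in oac-54 (93.7) and site 5 in rhy-1 (115). The 2 longest runs of bases that the introns shared each contained a core. They are shown on the plus strand with the core in capitals.
longest shared run: gactACGTGa
next shared run: agaACGTGc
The first began at base 7 of the oac-54 intron and base 12 of the rhy-1 intron, and the next began at bases 51 and 50. The longest was present in the windows of 2 calls of 604 (0.331%), those of sites 3 and 5, and in 87 places in the nuclear genome. The next was found in the windows of the same 2 calls, with 1073 copies in the nuclear genome. Both runs were picked because the introns under sites 3 and 5 share them, so their presence at these sites is no separate result. A read that lies wholly within a stretch identical in both genes cannot be assigned to either. The longest identical run between the genes was 64 bp and lay in the second coding exon of each, outside every peak, and sites 3 and 5 shared at most 10 bp in a row, as did sites 2 and 4.

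**Figure D5:**
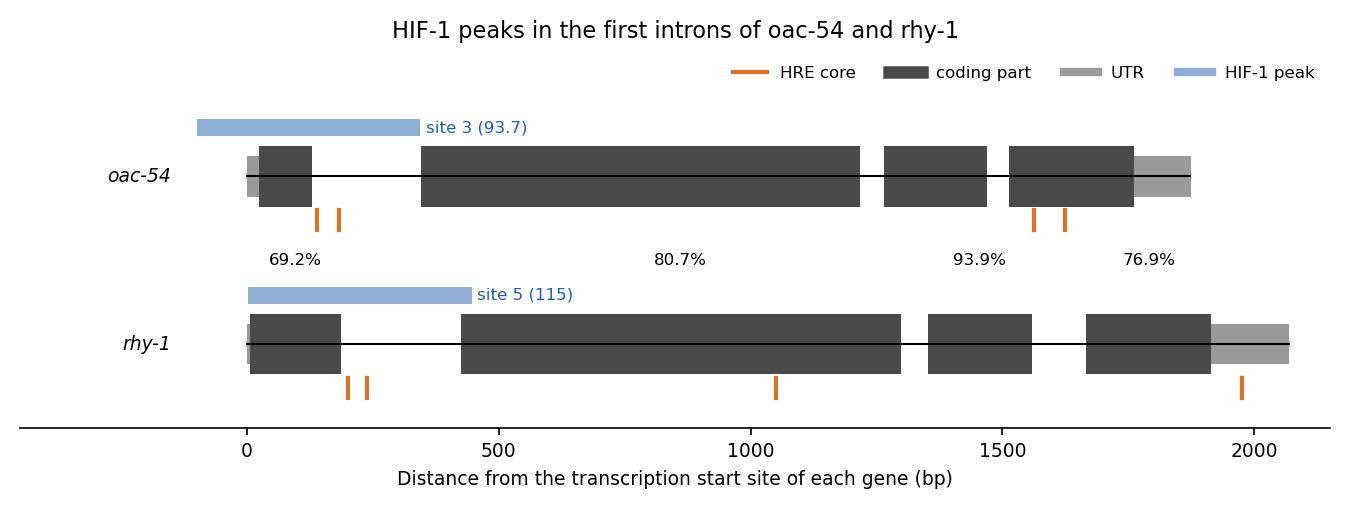
Exons, HRE cores (orange) and HIF-1 peaks (blue, with signal) of oac-54 and rhy-1 against the distance in bp from the TSS of each gene. Percentages between the genes are identities over the aligned bases of the coding parts of matching exons. The aligned stretches were 65, 831, 180 and 199 bp in exons 1, 2, 3 and 4. Sites 3 and 5 each span the 2 cores of a first intron, and exon 3, with the highest identity over aligned bases, lies outside the peaks in both genes.

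Other members of the families of the 3 genes were then counted. Of 56 oac genes, oac-54 alone had a peak centre within 1000 bp of a TSS (1.79%). Of 156 col genes, which encode collagens, 1 did (0.641%), col-85, with a signal of 55.3 at 376 bp downstream of its TSS. Over all protein-coding genes the share was 2.27%, and counts of 1 are read as no result about either family. Within 2000 bp of a TSS, the count of col genes was 5 of 156 (3.21%), beside 3.33% of all protein-coding genes, and that of oac genes was 1. The HIF-1 pathway was counted as 11 genes (hif-1, aha-1, egl-9, vhl-1, rhy-1, cysl-1, swan-1, elc-1, elb-1, cul-2 and rbx-1). Of these, rhy-1 and egl-9 had a peak centre within 1000 bp of a TSS (18.2%), beside 2.27% of all protein-coding genes. The interval was chosen from peaks that include those at rhy-1, so rhy-1 was certain to be counted. The share of 18.2% is therefore no result about the pathway. The peak of egl-9 within 1000 bp was a weaker one, with a signal of 122 at 139 bp upstream of its TSS. The highest peak of egl-9 was centred 1767 bp upstream.

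The calls of the interval were also dense. When the nuclear genome was divided into 7716 windows of 13000 bp from the start of each chromosome, 500 windows held at least 1 call and 1 window held 8, the one with these sites. Because sites 2 and 4 each had a second call over identical coordinates, these 8 calls were 6 separate peaks. The next window held 5 calls, at F26H9.5, and the window at egl-9 held 4, all of them separate peaks. Counted by separate peaks, the window with these sites thus led by 6 against 5. The 6 leading summits were spaced by 1956, 1756, 2208, 1162 and 1944 bp and the sites spanned 9358 bp. GC content in the windows of the 6 sites had a median of 39.8%, from 33.3% at site 1 to 43.3% at sites 3 and 4, where the median of all calls was 45.3%. The count of calls in a window depends on where windows begin, and with windows shifted by 50% of their length the interval was split and no window meeting it held more than 4.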

How the data were processed

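Whole L4 animals of OR3349 and OR3350 were compared by ChIP-seq. Per the submitters' processing notes, reads were aligned with BWA to WBcel235. According to the study's methods, SPP called the peaks and only those reproducible between replicates were kept. The authors deposited 1 list per genotype with peak positions and summits and a signal value that was not scaled between lists. Its lowest values differ from those in the study's methods. The q-value column was left unused, as its meaning is not stated, and the 19 and 18 mitochondrial peaks were set aside. Sequencing depth is stated only as a range for the 6 libraries together, and precision per peak is therefore unknown.

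Positions were read as 0-based starts. Genes came from Ensembl release 115 and sequence from the RefSeq genome of the same build. The HRE core was searched on both strands within 100 bp of each peak centre, after a check on simulated sequence. Proteins translated from annotated coding exons and exon DNA were aligned with Biopython 1.88. Genes named were the members, other genes of the interval and its neighbours, family and pathway members near a peak, and genes nearest to the peaks adjacent in rank. The interval, gene lists and alternatives were chosen with earlier results of these data known, and no test was run.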

Additional observations from a re-analysis of the deposited data

How the results depend on the processing

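The settings tried gave 49 alternative values for 23 results, of which 31 were unchanged, 18 moved and none was reversed. Most of these results are counts or ranks, which have no direction that could be reversed. Counts were taken as unchanged within 1.5 times the value given above, and ranks and distances only where identical. With mitochondrial peaks included, the rank of site 2 fell from 7 to 18 and that of site 4 from 1 to 8. Of the 6 sites, 3 reached the lowest control signal. Within 2000 bp of a TSS there were 5 sites, in place of 3 at 1000 bp, and 5 col genes, in place of 1, beside 3.33% of all protein-coding genes in place of 2.27%. With windows shifted by 50% of their length, the interval ranked 2 by number of calls, with 4 calls. Within the tolerance, the sites with a core were 4 in windows of about 50% of the length and 6 in whole peaks. The control counterpart was kept under every overlap rule tried. No paired analysis was possible because the replicates were reduced to 1 list per genotype, which also means that neither a left-out replicate nor a spread can be given.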

Other observations

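Other short motifs were counted in the same windows, within 100 bp of each peak centre and on both strands, as values without a test. GAGAGA was present in 40.9% of the windows of all nuclear calls of egl-9 mutants and at none of the 6 sites. ACACAC was present in 28.3% of all windows and at sites 1, 2 and 4. TGATAA was present in 14.9% of all windows and at sites 4 and 5, which lie on either side of the rhy-1 TSS. CACAG was present in 36.1% of all windows and at sites 1 and 3. With the distance widened to 2000 bp of a TSS, the collagen genes near a peak were col-78 (signal 175), col-94 (115), col-120 (106), col-181 (60.6) and col-85 (55.3). The peak at col-78, site 1, was centred 1970 bp downstream of the TSS, beyond the annotated end of the gene. The interval was chosen from signals that include this one, so the place of col-78 in this order is no result. At that distance elc-1, which encodes an elongin C of the VHL-1 complex, joined rhy-1 and egl-9 with a signal of 57.1, which made 3 of 11 pathway genes (27.3%). The share of all protein-coding genes at that distance was 3.33%, and that of the collagen genes 3.21%. The pathway count again includes rhy-1, a gene of the chosen interval, so it is no result either.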
